A study of Mus musculus with 96 samples.

Results

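The genes Hcn2, Hcn3 and Hcn4, which code for pore subunits of hyperpolarization-activated, cyclic nucleotide-gated (HCN) channels, and Pex5l, which codes for the HCN accessory protein TRIP8b, were followed in neurons of the lateral superior olive (LSO), together with the voltage sag recorded in the same cells. The members were taken by name, as the 4 rows of the expression table whose Ensembl identifiers carry these symbols, out of 38887 rows. The series was made by Patch-seq, in which a neuron is first recorded with a patch pipette and its cytoplasm is then drawn into the pipette for RNA sequencing, in brainstem slices of C57BL/6J mice of both sexes around hearing onset. The labels name no transgene and no treatment for any group. The neurons were grouped by their labelled firing pattern: principal LSO neurons (pLSOs) that fired at stimulus onset (Onset), pLSOs that fired throughout the stimulus (Sustained), and lateral olivocochlear neurons (LOCs), which send their axons to the cochlea. Negative controls were pipettes that had touched the slice without harvesting a cell. Of 86 labelled neurons and 10 controls, 6 neurons and 2 controls were left out, because other values or another cluster had been given for them elsewhere in the study, so that this choice depends in part on the clustering of the study. Transcripts were thus compared over 80 neurons, namely 41 Onset and 11 Sustained neurons (52 pLSOs) and 28 LOCs, beside 8 negative controls. Each library came from 1 cell and the labels name no animal, so that a class counted as 1 sample here: no test between classes was made, and intervals cover counting error over cells alone.

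HCN channels open when the membrane becomes more negative and then pass an inward cation current, Ih, which pulls the voltage back towards rest. This return is seen as a sag during a hyperpolarizing current step. Binding of cyclic AMP eases opening, and TRIP8b binds the cytoplasmic end of the subunits and, depending on its splice form, raises or lowers their number at the surface and weakens the action of cyclic AMP. In auditory brainstem neurons, Ih keeps the input resistance low and the membrane fast.

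The 3 HCN genes are close relatives, and 2 coding stretches of each are given to show where they are alike and where they part. Sequences were read 5′ to 3′ on the coding strand from Gencode vM21 transcripts on GRCm38. The first set covers the pore, with the 3 codons of the Gly-Tyr-Gly selectivity filter in capitals.
Hcn2: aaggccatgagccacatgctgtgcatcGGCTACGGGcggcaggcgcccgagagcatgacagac
Hcn3: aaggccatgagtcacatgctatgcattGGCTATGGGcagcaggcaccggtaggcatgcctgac
Hcn4: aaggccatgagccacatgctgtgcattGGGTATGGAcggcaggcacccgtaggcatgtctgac

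These stretches lie in coding exon sequence, in exon 4 of each transcript, at chr10:79728932-79728994 on the plus strand for Hcn2, at chr3:89150979-89151041 on the minus strand for Hcn3 and at chr9:58855564-58855626 on the plus strand for Hcn4. Over the 63 bases, Hcn3 and Hcn4 shared 56, Hcn2 and Hcn4 shared 53, and Hcn2 and Hcn3 shared 51. The end of HCN proteins is one of the places where TRIP8b binds, and its binding to each of the 3 was not tested here. The second set holds the last 30 coding bases before the stop codon, with the last 3 codons in capitals. These codons read Ser-Asn-Leu in Hcn2 and Hcn4 and Ala-Asn-Met in Hcn3.
Hcn2: tctgcgcgctcgcgcctctctTCCAACTTG
Hcn3: cccagaggtccccaaatttctGCCAACATG
Hcn4: ccagtacgctccaaactgccgTCTAATTTA

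At this end, the genes shared between 14 and 16 of 30 bases. The stretches lie at chr10:79735508-79735537 for Hcn2, chr3:89147602-89147631 for Hcn3 and chr9:58860731-58860760 for Hcn4. Across whole transcripts, the longest identical run was 33 bases between Hcn2 and Hcn3 and 32 bases in both other HCN pairs, and no window of 88 bases, the read length, was shared by any pair of the 4 members. The genes themselves span chr10:79716634-79736108 (Hcn2, ENSMUSG00000020331, plus strand), chr3:89146074-89160196 (Hcn3, ENSMUSG00000028051, minus strand), chr9:58823412-58863175 (Hcn4, ENSMUSG00000032338, plus strand) and chr3:32949408-33143247 (Pex5l, ENSMUSG00000027674, minus strand).

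Values are in TPM, transcript abundances scaled to a common sum in each library and deposited as whole numbers, and a gene was taken as detected at 1 TPM or more. Neurons had between 1175 and 6276 detected genes (median 2496) and kept negative controls between 285 and 1271. The 5 pLSO markers, Spp1 among them, had a median sum of 515 TPM in pLSOs, whereas LOCs were at 1.50 TPM. For the 6 LOC markers, such as Calca, the median sums were 0 TPM (pLSOs) against 2008 TPM (LOCs). The 5 pLSO markers are genes that the study had ranked first for a cluster of these same neurons, as were several LOC markers. Their separation of the classes was thus built in and is no separate check of them. All 6 oligodendrocyte markers were present in every class, with summed levels from 0 to 12818 TPM (median 288) in pLSOs, from 1 to 25765 TPM (median 1115) in LOCs and from 389 to 42992 TPM (median 6831) in the controls. The table gives no read counts. The scale of its TPM values changes along the rows: in the 301 rows around Hcn2, the smallest value of a neuron was 2 TPM at the median and up to 10 TPM, and around the other members 1 TPM at the median and up to 3 TPM. A level can therefore be compared between neurons for 1 gene, but not between genes without rescaling. The smallest step of the values was estimated from gene lengths in ascending order and not measured at these rows. It was 3.04 TPM at Hcn2, 0.376 TPM at Hcn3, 0.199 TPM at Hcn4 and 0.422 TPM at Pex5l. At Hcn2 this estimate is above the smallest values seen around the gene, 2 TPM at the median and 1 TPM in some neurons. As values are whole numbers, the smallest signals of Hcn3, Hcn4 and Pex5l can be recorded as 0 TPM. Shares of neurons with a gene thus do not have equal sensitivity across genes either.

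The sag separated pLSOs from LOCs almost fully, and it was found in both firing types of pLSO. Onset neurons had sags from 1.80 to 15.5 mV (median 7.30 mV, mean 8.20 ± 3.96 mV, SD, n = 41). In Sustained neurons, sags ran from 3.70 to 18.5 mV (median 10.3 mV, mean 11.1 ± 4.71 mV, SD, n = 11). In LOCs, the range was -0.50 to 2.00 mV (median 1.00 mV, mean 0.854 ± 0.621 mV, SD, n = 28), and 3 LOCs were at 0 mV or below. Of 52 pLSOs, 1 lay at or below the highest LOC, whereas the ranges of Onset and Sustained neurons overlapped broadly, with 16 of 41 Onset neurons above the Sustained median. With the left-out neurons returned to their labels, the medians were 7.35 mV (Onset, n = 44), 9.80 mV (Sustained, n = 12) and 1.00 mV (LOC, n = 30).

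**Figure D1:**
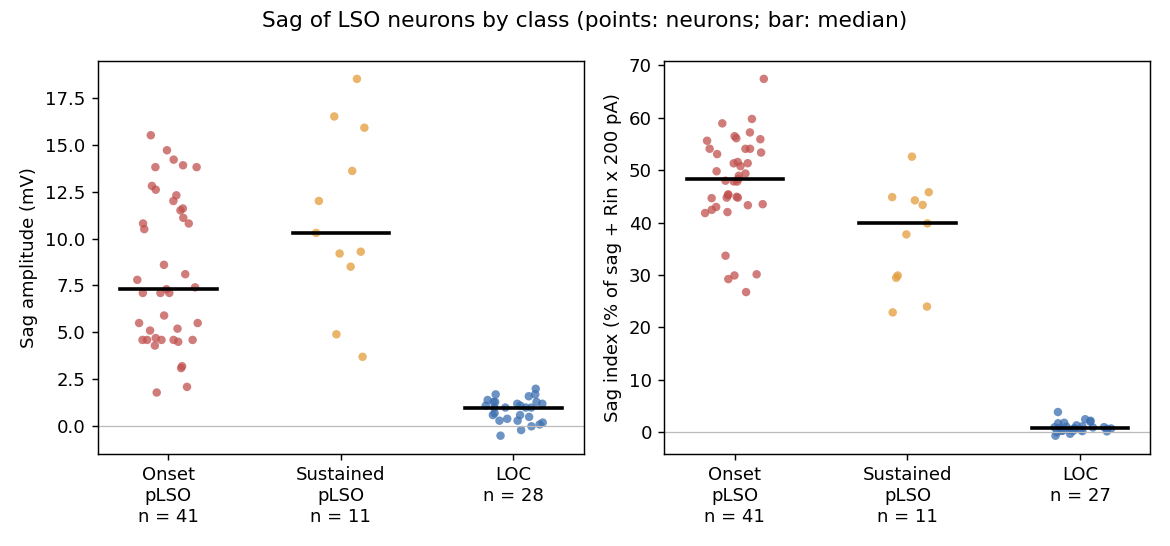
Sag amplitude in mV (left) and sag index in percent (right) of every neuron by class, with a bar at the median. LOCs lie at or below 2.00 mV and 3.86%, and all pLSOs but 1 of 52 lie above the highest LOC in mV, and all 52 in percent.

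Because sag amplitude depends on how far the membrane is driven, it was also set against input resistance. A sag index was formed as the sag in percent of the sag plus the product of input resistance and the 200 pA step. Its median was 48.3% in Onset neurons (26.7 to 67.4%, n = 41), 39.8% in Sustained neurons (22.9 to 52.6%, n = 11) and 0.737% in LOCs (-0.653 to 3.86%, n = 27), with no overlap between pLSOs and LOCs. In mV, the Onset median was below the Sustained one, and by the index it was above. The index is a description of these labels: input resistance was measured with a small voltage step, and its product with 200 pA at the LOC median, 110 mV, is larger than a neuron would reach.

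Input resistance was 16.7 to 139 MΩ in Onset neurons (median 41.7 MΩ), 37.0 to 147 MΩ in Sustained neurons (median 88.8 MΩ) and 58.8 to 904 MΩ in LOCs (median 549 MΩ, n = 27). The LOC with the lowest input resistance, 58.8 MΩ, was the only one of 27 within the pLSO range and had a sag of 0 mV. Within Onset neurons, sag was larger at higher input resistance (Pearson's r = 0.66, Spearman's rho = 0.78, n = 41) and at a longer membrane time constant (r = 0.79, rho = 0.82), and r was 0.63 and 0.80 without the 2 neurons farthest from the median sag. In Sustained neurons, r with input resistance was 0.45 (rho = 0.48, n = 11) and 0.32 without 2 neurons. In LOCs it was 0.35 (rho = 0.35, n = 27) and 0.31 without 2 neurons. Resting potential related weakly to sag, with r of -0.29 (rho = -0.30) in Onset neurons, -0.15 (rho = -0.15) in Sustained neurons and -0.12 (rho = -0.10, n = 19) in LOCs; without 2 neurons r was -0.28, -0.24 and -0.29. These correlations are descriptions over neurons, of which an unknown number share an animal.

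**Figure D2:**
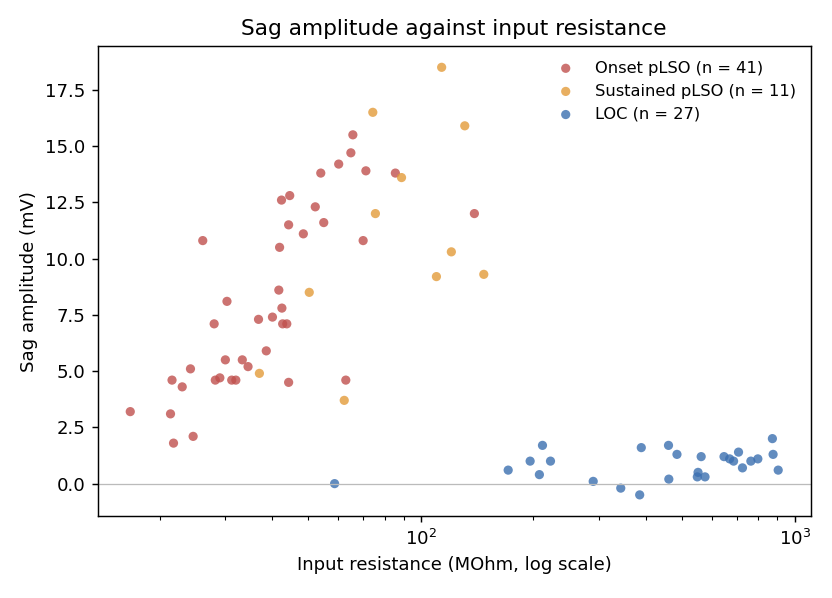
Sag amplitude (mV) against input resistance (MΩ, log scale) for 41 Onset, 11 Sustained and 27 LOC neurons, each point 1 neuron. Sag climbs with input resistance among Onset neurons, whereas LOCs stay at or below 2.00 mV over their whole range.

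Against these sags, transcripts of the 3 HCN genes were rare. Any of the 3 was detected in 6 of 41 Onset neurons (14.6%, exact 95% interval 5.57 to 29.2%), in 0 of 11 Sustained neurons, which allows a share of up to 27.3%, and in 4 of 28 LOCs (14.3%, 4.03 to 32.7%). No neuron had more than 1 of the 3, and the 8 negative controls had none, which allows up to 37.5%. The share in LOCs, whose sags were near 0 mV, was thus within the interval of the Onset share. Fewer transcripts per cell, transcripts lost in harvest and amplification, signal rounded to 0 TPM and an absent gene cannot be told apart here.

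Hcn2, whose channel is widespread in brain and responds strongly to cyclic AMP, was found in 4 of 41 Onset neurons (9.76%, 2.72 to 23.1%). Their values were 68, 17, 4 and 3 TPM, and the remaining Onset neurons were at 0 TPM. In LOCs, 2 of 28 neurons held it (7.14%, 0.877 to 23.5%), with 7 and 4 TPM. No Sustained neuron did. The class means were 2.24 ± 10.9 TPM (SD) in Onset neurons and 0.393 ± 1.50 TPM in LOCs; without the highest Onset neuron the Onset mean was 0.600 TPM, so that 1 neuron carried most of it. The LOC with 4 TPM was at the smallest value that its library shows among the 301 rows around the gene.

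Hcn3, a subunit with a weak response to cyclic AMP, was detected in 2 LOCs alone (7.14%), at 137 and 136 TPM, and in 0 of 52 pLSOs, which allows up to 5.77%. Of the genes detected in either of these 2 libraries, 17.9% were detected in both, against a median of 22.7% over the 378 LOC pairs. Of their genes with 20 TPM or more, 0.230% had equal values, against a median of 0.0845% and a maximum of 0.358% over LOC pairs. Whether the 2 Hcn3 values arose independently was not tested. Both libraries were shallow, with 1927 and 1671 detected genes. Pklr, on the other strand, overlaps an exon of Hcn3, and it was at 0 TPM in both neurons. Sags of the 2 neurons were -0.50 mV, the lowest of all LOCs, and 1.30 mV.

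Hcn4, a slow subunit best known from the cardiac pacemaker and also present in thalamus and brainstem, was detected in 2 of 41 Onset neurons (4.88%, 0.596 to 16.5%), at 45 and 20 TPM. It was at 0 TPM in the remaining Onset neurons, in 11 Sustained neurons and in 28 LOCs, the last of which allows a share of up to 10.7%. Their sags, 12.8 and 14.7 mV, were the 35th and the 40th of 41 Onset sags from the lowest.

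With a cutoff of 1 TPM, which is not equally sensitive for the 4 genes, Pex5l was the most often detected member. It was found in 15 of 41 Onset neurons (36.6%, 22.1 to 53.1%), in 4 of 11 Sustained neurons (36.4%, 10.9 to 69.2%) and in 3 of 28 LOCs (10.7%, 2.27 to 28.2%), and in 0 of 8 negative controls. The Onset values were 281, 63, 41, 13, 13, 5, 4, 3, 3 and 2 TPM and 5 neurons at 1 TPM. In Sustained neurons they were 81, 12, 11 and 5 TPM, and in LOCs 40, 5 and 3 TPM. Most neurons of each class were thus at 0 TPM, and the highest neurons of the 3 classes overlapped in level. Mean levels were 10.6 ± 44.8 TPM (SD, n = 41), 9.91 ± 24.0 TPM (n = 11) and 1.71 ± 7.58 TPM (n = 28), and without the highest neuron of each class they were 3.80, 2.80 and 0.296 TPM. Of 2 genes that overlap exons of Pex5l on the other strand, 4930419G24Rik was at 0 TPM in all 22 neurons with Pex5l, and the other has no row in the table.

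**Figure D3:**
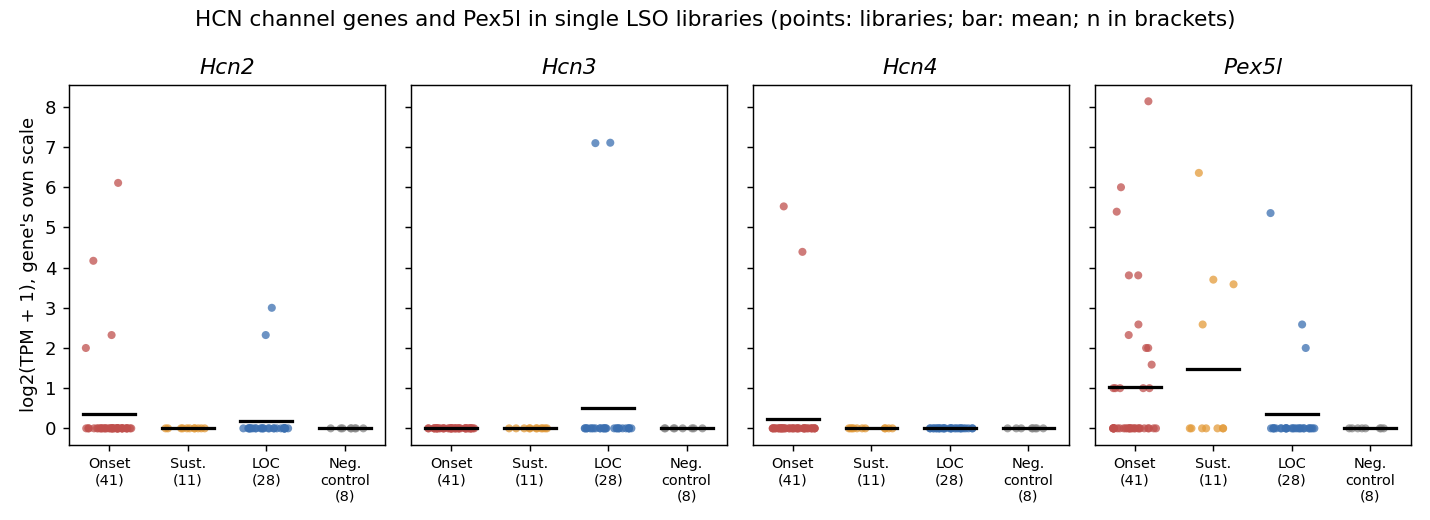
Levels of Hcn2, Hcn3, Hcn4 and Pex5l as log2(TPM + 1) in each library of 41 Onset, 11 Sustained and 28 LOC neurons and 8 negative controls, with a bar at the mean. Most libraries lie at 0 for every gene, and Pex5l has the most points above 0, with 15, 4 and 3 neurons of the classes and none of the controls.

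Pex5l, but not Hcn2, was more often detected in pLSOs than in LOCs by the rule used for all genes, and no longer so when detection was set higher. Over 10319 genes detected in at least 5% of the 80 neurons, the share of neurons with a gene differed between pLSOs and LOCs by 20 percentage points or more in 8.70%, and mean log2(TPM + 1) differed by 1 or more in 11.7%. Hcn2 and Pex5l passed this filter, and Hcn3 and Hcn4, each in 2 of 80 neurons, did not. Pex5l was past the share rule, with 36.5% of pLSOs (23.6 to 51.0%) against 10.7% of LOCs, a difference of 25.8 points. It was not past the rule on level, with a difference of mean log2(TPM + 1) of 0.78. With a pseudocount of 0.1 in place of 1 this difference was 1.53, past the rule, as it then was for 2490 genes instead of 1204. With detection set at 5 TPM its difference of shares was 12.1 points and with detection at 10 TPM 11.8 points, both below the rule. Of the 15 Onset neurons that held Pex5l, 9 were below 5 TPM, 5 of them at 1 TPM. For Hcn2, shares differed by 0.549 points and mean log2(TPM + 1) by 0.09. Between Onset and Sustained neurons, neither Hcn2 nor Pex5l was past a rule, where 14.0% of genes passed on shares and 15.1% on level.

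Oligodendrocytes also transcribe Pex5l, and their markers were therefore read in the same libraries. The 6 markers summed to 0 TPM in the Onset neuron with 41 TPM of Pex5l, to 554 TPM in that with 281 TPM, to 352 TPM in that with 63 TPM and to 54 TPM in the LOC with 40 TPM. In the Sustained neuron with 81 TPM of Pex5l the sum was 3197 TPM. Over all 22 neurons with Pex5l the sums ran from 0 to 12818 TPM, and 5 of these neurons had 5000 TPM or more: an Onset neuron with 13 TPM of Pex5l (12818 TPM of markers), another with 3 TPM (5213 TPM), Sustained neurons with 5 TPM (5707 TPM) and 12 TPM (5009 TPM) and a LOC with 3 TPM (5656 TPM). The 8 negative controls kept, with a median sum of 6831 TPM, were at 0 TPM for Pex5l, and 1 left-out control held 26 TPM. The part of oligodendrocyte RNA in the Pex5l values was not tested. In the neurons with Hcn2, the oligodendrocyte sums ran from 110 to 25765 TPM. In those with Hcn3 they were 8457 and 224 TPM, and in those with Hcn4 154 and 42 TPM. The 6 astrocyte markers summed in the same order to 0 and 8729 TPM (Hcn3) and to 6075 and 0 TPM (Hcn4). In the Onset neurons with 281, 63 and 41 TPM of Pex5l they summed to 13, 3732 and 13 TPM. In the Sustained neuron with 81 TPM and the LOC with 40 TPM the astrocyte sums were 3057 and 1927 TPM. Class medians were 305 TPM (Onset), 917 TPM (Sustained) and 244 TPM (LOC). The part of astrocyte RNA was not tested.

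To compare levels between genes, values were rescaled to each gene's own exon length (3195 bases for Hcn2, 4154 for Hcn3, 6118 for Hcn4 and 8846 for Pex5l). On this per-length scale, Onset means were 13.4 for Pex5l, 7.66 for Hcn4 and 1.27 for Hcn2, in rescaled TPM. In LOCs, Hcn3 was at 24.8, Pex5l at 2.64 and Hcn2 at 0.185. In Sustained neurons, Pex5l was at 11.1 and the HCN genes at 0. Each HCN mean rests on 2 to 4 neurons, and without the highest neuron of each the Onset means were 5.33 for Pex5l, 2.19 for Hcn4 and 0.390 for Hcn2 and the LOC means 10.9 for Hcn3, 0.440 for Pex5l and 0.0569 for Hcn2. The Sustained mean of Pex5l was then 3.99. The spread over neurons was not computed on this scale, and differences between neighbours in this order were not tested.

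Within a class, members were then set against sag. The 4 Onset neurons with Hcn2 had sags of 7.10 mV at 68 TPM, 12.6 mV at 17 TPM, 12.3 mV at 4 TPM and 8.10 mV at 3 TPM. By the sag index they were at 55.9, 59.8, 54.1 and 57.2% in the same order, and the 2 neurons with Hcn4 at 58.9% (45 TPM) and 53.1% (20 TPM). All 6 thus lay above the Onset median of 48.3%, as did other Onset neurons without these transcripts: 13 of 41 Onset neurons were at or above the lowest of the 6. Together with the 2 Hcn4 neurons, 5 of 21 Onset neurons at or above the median sag of 7.30 mV held 1 of the HCN genes (23.8%, 8.22 to 47.2%), and 1 of 20 below it (5.00%, 0.127 to 24.9%). These intervals overlap, and the median number of detected genes was 2693 at or above the median sag and 2391 below it; the part of this depth in the difference was not tested. In LOCs, 2 of 16 neurons at or above the median and 2 of 12 below it held 1 of the HCN genes. The 2 LOCs with Hcn2 had sags of 0.300 and 1.40 mV.

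Pex5l was found in 7 of 21 Onset neurons at or above the median sag (33.3%, 14.6 to 57.0%) and in 8 of 20 below it (40%, 19.1 to 63.9%). The 3 Onset neurons of highest Pex5l, with 281, 63 and 41 TPM, had sags of 3.20, 4.60 and 2.10 mV, all below the median, and ranked 4th, 7th and 2nd of 41 from the lowest, the middle one tied with 4 others. Their input resistances, 16.7, 21.6 and 24.6 MΩ, were also below the Onset median, and by the sag index they were at 48.9, 51.6 and 29.9%, on both sides of the Onset median of 48.3%. In Sustained neurons, the highest Pex5l value, 81 TPM, was in the neuron of lowest sag (3.70 mV), and the lowest detected value, 5 TPM, in that of highest sag (18.5 mV). The 2 neurons between, with 12 and 11 TPM, had sags of 8.50 and 12.0 mV.

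Over all Onset neurons, the correlation of Pex5l log2(TPM + 1) with sag was weak (r = -0.22, rho = -0.14, n = 41), and r was -0.18 without the 2 neurons farthest from the median sag. Among 4443 genes detected in at least 20% of Onset neurons, the median rho was 0.03 and 14.5% of genes had a lower rho than Pex5l. In Sustained neurons, r was -0.33 (rho = -0.29, n = 11) and -0.14 without 2 neurons, and 22% of 5089 genes had a lower rho. By the sag index, rho was -0.02 in Onset and 0.12 in Sustained neurons. In LOCs, where 3 neurons held Pex5l, r was -0.00063 (rho = -0.04, n = 28) and -0.06 without 2 neurons. For Hcn2, Hcn3 and Hcn4, at most 4 neurons of a class were above 0, too few for a correlation to be read, and the values of the single neurons are given above instead.

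**Figure D4:**
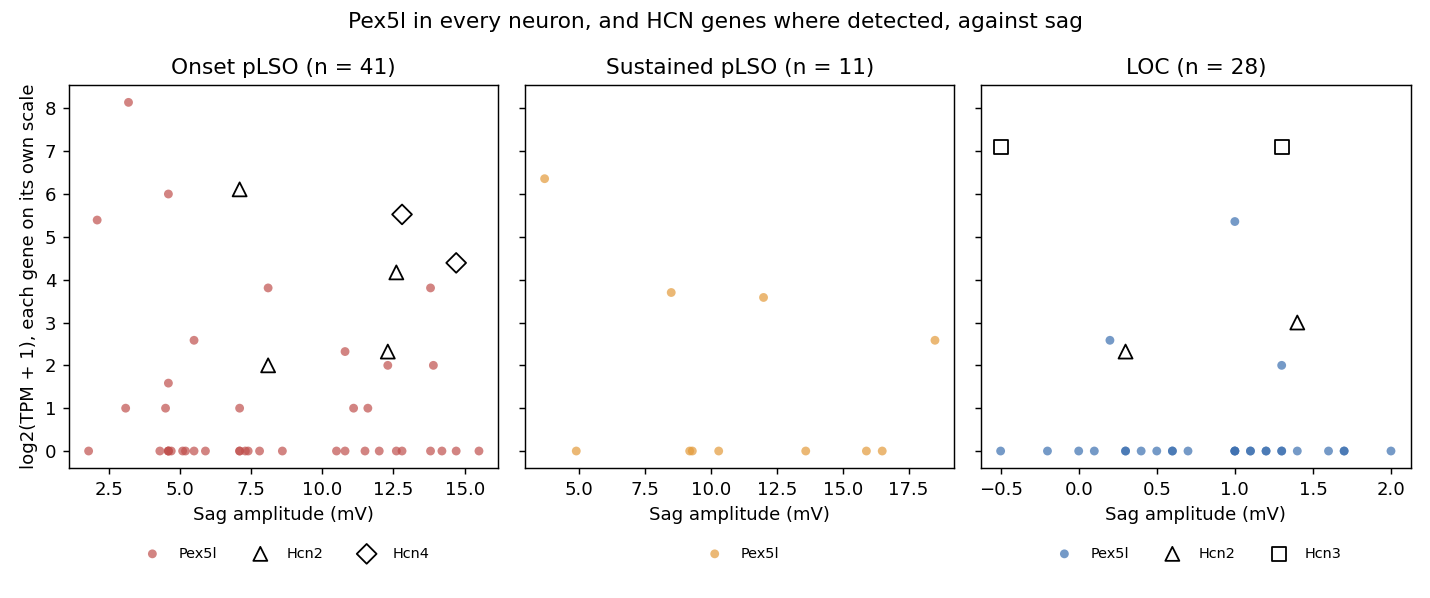
Level as log2(TPM + 1) against sag amplitude (mV) by class, with Pex5l drawn for every neuron as a filled point and the HCN genes as open symbols where detected. The Onset neurons with the 3 highest Pex5l values have sags of 2.10 to 4.60 mV, those with Hcn4 12.8 and 14.7 mV.

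An HCN gene and Pex5l were detected together in 2 neurons. Of 10 neurons with 1 of the HCN genes, these 2 held Pex5l as well, both Onset neurons with Hcn2 (3 TPM beside 13 TPM of Pex5l, and 4 TPM beside 3 TPM). Of the 80 neurons, 20 held Pex5l without these HCN genes and 50 held none of the 4 members. The genes whose log2(TPM + 1) was most like that of Pex5l over the 80 neurons, among 4799 genes, were Lsm4 (r = 0.46), Epb41l1 (r = 0.46) and Iqgap1 (r = 0.42), and without the neuron of highest Pex5l their r was 0.37, 0.38 and 0.30. The median r over the 4799 genes was 0.01 and the 99th percentile 0.305, and the 3 genes named were picked as the highest.

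Genes around HCN channels were read from 7 lists: HCN partner proteins, adenylyl cyclases, cyclic AMP phosphodiesterases, protein kinase A subunits, cyclic nucleotide-gated (CNG) channels, subthreshold potassium channels and T-type calcium channels. Of 62 listed genes 61 were in the table and 40 passed the 5% filter, and 3 were past the share rule with higher shares in pLSOs and 2 with lower ones, 12.5% in all beside 8.70% of all genes. Their median difference of shares was -2.34 points, against 2.20 points over all genes.

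**Figure D5:**
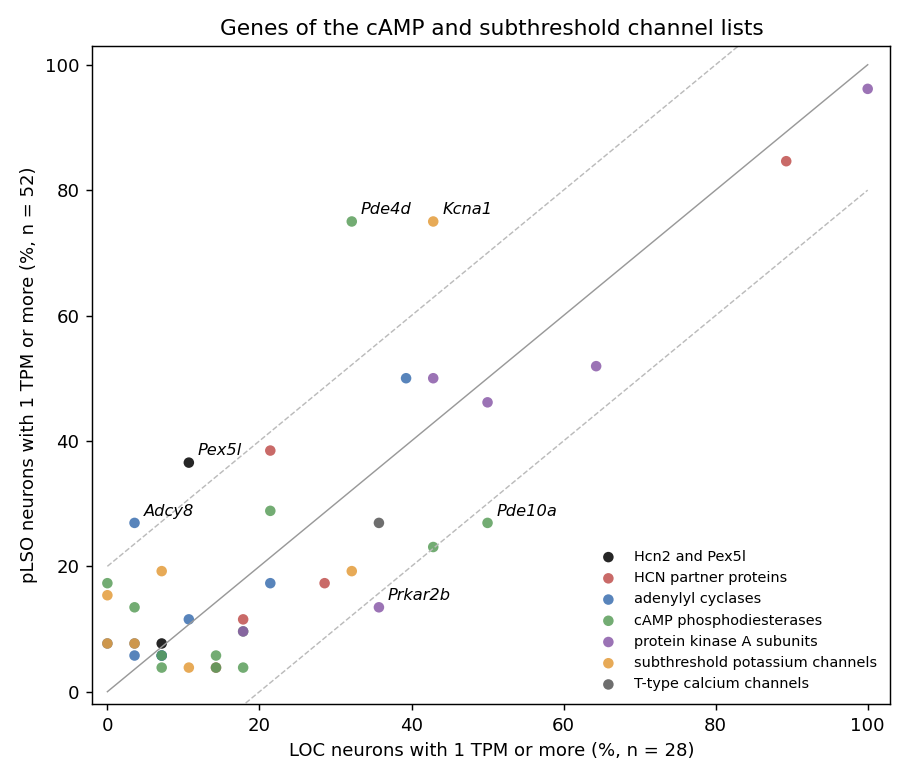
Percent of pLSOs (n = 52) against percent of LOCs (n = 28) with 1 TPM or more for 40 listed genes, Hcn2 and Pex5l, each in at least 5% of 80 neurons. The solid line marks equal shares and the dashed lines a difference of 20 points; the 6 genes named lie beyond them, Pde4d and Kcna1 the farthest above.

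Of the phosphodiesterases, which break down cyclic AMP, Pde4d was in 39 of 52 pLSOs (75.0%, 61.1 to 86.0%) and 9 of 28 LOCs (32.1%, 15.9 to 52.4%), with a mean log2(TPM + 1) higher by 4.02 in pLSOs. Pde10a went the other way, with 14 of 52 pLSOs (26.9%) and 14 of 28 LOCs (50.0%). Adcy8, a calcium-stimulated adenylyl cyclase that makes cyclic AMP, was in 14 pLSOs (26.9%) and 1 LOC (3.57%, 0.0904 to 18.3%). Prkar2b, a regulatory subunit of protein kinase A, was in 7 pLSOs (13.5%) and 10 LOCs (35.7%). Of the potassium channels that act below spike threshold, Kcna1 was in 39 pLSOs (75.0%) and 12 LOCs (42.9%, 24.5 to 62.8%), also in 2 of 8 negative controls. No HCN partner protein was past the share rule among 5 that passed the filter. Vapa, an endoplasmic reticulum protein that binds HCN channels, was the most frequent, with 44 of 52 pLSOs (84.6%) and 25 of 28 LOCs (89.3%). It was also in 2 of 8 negative controls. None of 6 CNG channel genes, the nearest relatives of HCN channels, passed the filter, and 4 of them were at 0 TPM in all 80 neurons.

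Between Onset and Sustained neurons, 7 of the 40 listed genes were past the share rule (17.5%, beside 14.0% of all genes), all with lower shares in Onset neurons. Over all genes, too, 1108 of the 1440 past this rule were lower in Onset neurons. The 4 of largest difference were Pde1c, a calcium-dependent phosphodiesterase (3 of 41 Onset and 4 of 11 Sustained neurons), Adcy10, the soluble adenylyl cyclase (1 of 41 and 3 of 11), Adcy6, a calcium-inhibited cyclase (5 of 41 and 4 of 11), and Prkar1b, a regulatory subunit of protein kinase A (17 of 41 and 7 of 11). With 11 Sustained neurons, the intervals are wide, as for Pde1c with 1.54 to 19.9% in Onset and 10.9 to 69.2% in Sustained neurons.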

How the data were processed

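Cytoplasm of single LSO neurons was aspirated after recording and made into libraries by a modified Smart-seq2 protocol. Per the submitters' processing notes, reads were trimmed with Trim Galore 0.4.2, aligned to mm10 with STAR, marked for duplicates with Picard 1.115 and summarised to genes with featureCounts. The authors then made TPM from gene length and depth; the deposited score values are these TPM as whole numbers, with sums of 999773 to 1000026 per library. Read counts are not given in the sources used here, so no count model was used and depth is not known; the number of detected genes and the smallest local value stand in for it.

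Gencode vM21 (GRCm38) gave names, positions and lengths for 37570 of 38887 identifiers; the study names another release. The scale of the TPM follows the order of the rows, as if gene lengths had been used in ascending order. For comparisons between genes, values were divided by the local step, measured over the first 1700 rows and taken from sorted lengths after that, then by a gene's own length less 80 bases, and scaled back to the same sum. Whether this restores the counts was not tested.

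Members and lists were chosen with earlier results of these data known. Results for 1 further gene of the HCN family are not reported here. Groups came from the firing pattern label; 8 libraries were left out. Sag is a label, measured by the authors at a 200 pA hyperpolarizing step. Shares carry exact (Clopper-Pearson) 95% intervals, and for 0 the limit of 3 neurons over n; both cover counting error only. Listed genes were named where they were among the 4 largest differences of shares in a direction, past 20 points. Genes like a member were the 3 of highest Pearson's r, for members in at least 10% of neurons, among genes in at least 20%. Alternatives were detection at 5 or 10 TPM, other pseudocounts and filters, libraries with at least 2000 genes, and all libraries as labelled. The comparison over all genes was run on simulated data with the class sizes of pLSOs and LOCs. The simulated shifts of detection were far above 20 points. This run cannot show how the rule behaves near 20 points or between Onset and Sustained neurons. Figures were drawn with matplotlib 3.10.9; intervals came from SciPy 1.17.1, and tables were handled with pandas 2.3.3 and NumPy 2.4.6 under Python 3.11.15.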

Additional observations from a re-analysis of the deposited data

Results flagged for a closer look

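With all 10 negative controls as labelled, 1 control, left out above, held Pex5l at 26 TPM and all others were at 0 TPM, a library far from the rest of its group. That library had 3104 detected genes, against at most 1271 in the 8 controls kept. A left-out neuron labelled as Sustained held Hcn2 at 3 TPM, with a sag of 6.30 mV; with it, 1 of 12 Sustained neurons held 1 of the HCN genes described, instead of 0 of 11.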

How the results depend on the processing

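Most values stayed within the tolerance set for their kind under the alternatives tried (164 of 177). For shares this was the counting interval, for differences of shares the side of the rule of 20 points, and for gene counts a fixed factor. For correlations it was set by the number of neurons, and for sag medians it was 1 SD. For mean levels and differences of mean log2 level it was 1 SD over neurons, which was larger than each mean and each difference. A difference that moved past the rule of 1 was counted apart. Means and differences could thus not leave this tolerance by shrinking to 0, and the count does not measure how stable they are. Rescaled to own gene length, the Onset mean of Hcn4 went from 1.59 to 7.66 and counted as within. With detection at 10 TPM, Hcn2 was in 0% of LOCs. Pex5l was in 14.6% of Onset neurons at 5 TPM and in 12.2% at 10 TPM, and its difference of shares between pLSOs and LOCs fell below 20 points, to 12.1 and 11.8 points; it was 23.9 points with libraries as labelled and 27.3 points in neurons with at least 2000 genes. In the latter, Hcn3 was in 0% of LOCs, since both neurons that held it had fewer genes. With a pseudocount of 0.1, genes past the level rule numbered 2490 for pLSOs against LOCs (1204 with 1) and 3174 for Onset against Sustained neurons (1559 with 1), and the difference of mean log2 level of Pex5l between pLSOs and LOCs was 1.53, past the rule of 1 (0.78 with 1). By the sag index, rho for Hcn2 in Onset neurons was 0.43 (0.18 in mV) and for Pex5l in Sustained neurons 0.12 (-0.29 in mV). Without the 2 neurons of most extreme sag, rho for Hcn3 in LOCs was 0.17 (-0.12 with them), and rho of the time constant with sag in Sustained neurons was 0.23 (0.57 with them). The values for Hcn2 and Hcn3 rest on 4 and 2 neurons above 0 and are not read as relations. Of the 2 LOCs with Hcn3, that at -0.50 mV was among the neurons of most extreme sag taken out. Both LOC values of Hcn2, 7 and 4 TPM, are below 10 TPM. The cause of the other shifts was not tested. No paired analysis was possible because the labels give neurons no replicate numbers or animals that pair them across classes.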
